A study of Argiope bruennichi with 12 samples.

Results

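A pair of genes of oxidation and reduction chemistry was followed in overwintering spiderlings of the wasp spider Argiope bruennichi: quinone oxidoreductases (LOC129981218) and cytochrome P450 (LOC129961890). These 2 rows were found in the count table by their identifiers, out of 37459 genes. The names are those used in the study. The study chose them because they differed between winter regimes in these same counts. It lists quinone oxidoreductases for warm against cold and for cold against moderate, and cytochrome P450 for warm against cold. The values of those contrasts chose the genes and are therefore given as a description, with no test.

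RNA was taken from 12 pools of 15 whole first instar spiderlings, after 3 months in climate cabinets, with 4 pools per regime. Warm pools had days at 15°C and nights at -5°C. Cold pools had days at 5°C and nights at -15°C, and moderate pools, the control regime of the study, days at 5°C and nights at -5°C. All spiderlings came from females collected in one northern population and were kept inside their egg sacs. Each regime had one cabinet, and the cold cabinet was of another make than the cabinets of the warm and moderate regimes, so that effects of regime and of cabinet cannot be told apart. The sources used here do not say which mothers contributed to which pool, so p-values measure the spread between these pools. The deposited values are read counts per gene, with library totals between 10800714 and 16081111. Normalized counts are counts scaled by edgeR's TMM method to one library size, and 14057 genes passed its filter on low counts, both of these genes among them. Moderate replicates 4 and 2 stood apart. On the log2 scale of reads scaled to library size (log2 CPM), moderate replicate 4 had a mean distance of 56.5 to the warm pools and of 90.0 to the other moderate pools. Moderate replicate 2 was far from the pools of every regime, at 110 from warm, 92.4 from cold and 91.7 from moderate. Fits without replicate 4 are given where it touched a result, and a fit without replicate 2 for cytochrome P450 in warm against moderate.

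Quinone oxidoreductases pass electrons from NADPH or NADH to quinones, small ring compounds that can cycle between oxidized and reduced forms and produce reactive oxygen on the way. Cytochromes P450 are heme enzymes that insert an oxygen atom from molecular oxygen into steroids, fatty acids and foreign compounds, with electrons from NADPH. In arthropods different P450s make and break down the molting hormone and detoxify plant compounds and insecticides. The names were not checked against protein sequences here.

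The annotation of assembly qqArgBrue1.1 places quinone oxidoreductases on chromosome 8 from 22147538 to 22162307, a span of 14770 bases. Cytochrome P450 lies on chromosome 2 from 21824727 to 21869453, a span of 44727 bases. Both are annotated as protein-coding genes with 1 RefSeq transcript each, and 0 other annotated genes overlap either span. Quinone oxidoreductases had between 2457 and 4905 reads per pool, which gives a counting error of 1.43% to 2.02%. For cytochrome P450 the range was from 1278 to 3614 reads and 1.66% to 2.80%. Spread between pools was larger than this counting error for both genes in every regime, so the 4 pools per regime and not the depth limited the precision.

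Quinone oxidoreductases was low in the cold regime and at a like level in the other regimes. In the warm pools it was at 4524, 4277, 4241 and 3805 normalized counts. The cold pools were at 2137, 2498, 2583 and 2550, and the moderate pools at 4061, 4707, 3966 and 4775. All 4 cold pools lay below all 8 other pools, and the warm and moderate pools overlapped. Of the 14057 genes tested, 0.918% had all cold pools below the rest. Pools of whole animals were sequenced, so fewer cells that express the gene and less of its RNA per cell cannot be told apart.

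**Figure D1:**
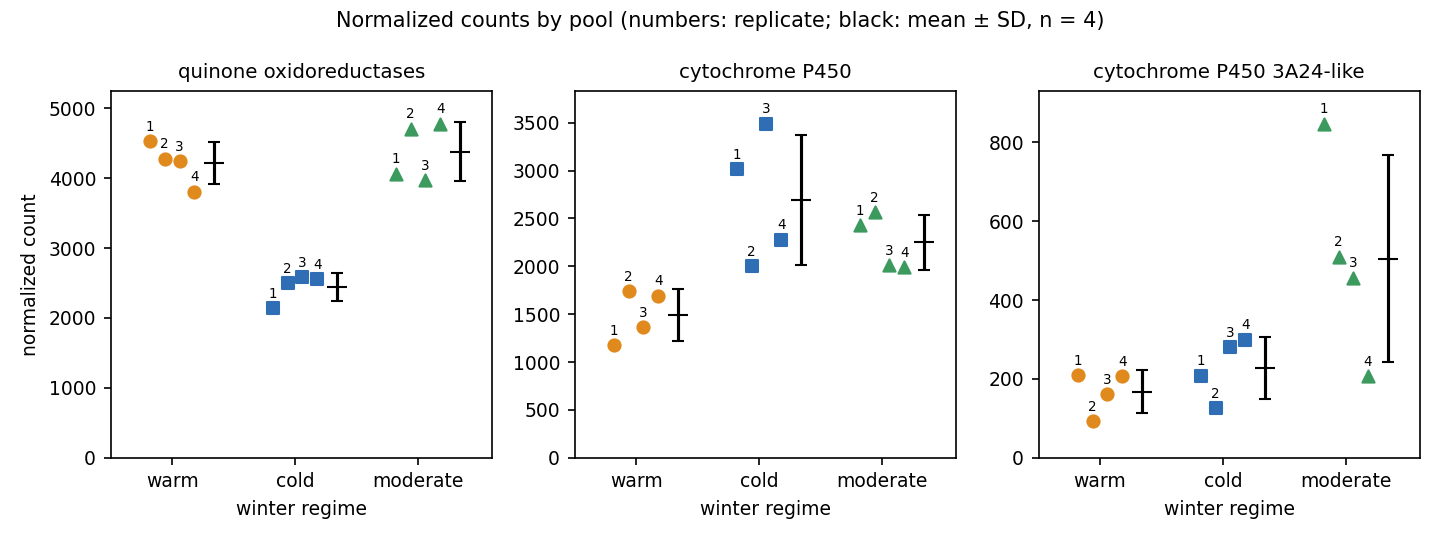
Normalized counts (y axis, from 0) of quinone oxidoreductases, cytochrome P450 and cytochrome P450 3A24-like in the 4 pools of the warm, cold and moderate regimes, with black marks for the mean ± SD (n = 4). The cold pools of quinone oxidoreductases end at 2583 and its lowest other pool is at 3805, the warm pools of cytochrome P450 end at 1740, and the moderate pools of cytochrome P450 3A24-like reach from 207 to 847.

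The mean of quinone oxidoreductases was 4212 ± 299 normalized counts in warm, 2442 ± 206 in cold and 4377 ± 423 in moderate (SD, n = 4 each). Warm was 1.72 times cold, a log2 fold-change of 0.79 (standard error 0.11), and no warm pool overlapped a cold pool. Such a separation with warm higher was found in 12.7% of all genes tested, and 2.7% were called higher in warm at an adjusted p under 0.05. In cold against moderate the log2 fold-change was -0.84 (standard error 0.11), which puts moderate at 1.79 times cold. There the pools were separate with cold lower for 2.2% of all genes tested, and 0.00711% were called lower in cold. That last share is 1 gene, quinone oxidoreductases itself, so it is no background for it. Nothing is read from these shares, since the gene was chosen on the same contrasts.

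The study does not list quinone oxidoreductases for warm against moderate. This contrast shares its pools with those listed, and the study plotted the gene over all regimes. By edgeR's quasi-likelihood fit the log2 fold-change was -0.06 ± 0.11 (SE), with a p of 0.747 adjusted over all genes by the Benjamini-Hochberg method. Its 95% interval, from -0.28 to 0.17 on the log2 scale, leaves room for a warm level between 0.823 and 1.13 times the moderate one. In this contrast 4.08% of all genes were called. With moderate replicate 4, the highest of all pools at 4775, left out, the log2 fold-change was -0.01.

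Pools of one regime resembled each other closely in this gene. The highest pool was 1.19 times the lowest in warm, 1.21 times in cold and 1.20 times in moderate. Its SD within regimes was 0.125 on the log2 CPM scale, against a median of 0.272 over all genes, and 6.89% of genes had a smaller one. This background holds genes with few reads too and was not matched for read depth. Differences between regimes made up 92.7% of this gene's variance over the 12 pools, against a median of 33.1%, and 0.0142% of genes had a larger share. These shares describe a gene that was picked for its difference between regimes. Cold replicate 1, at 2137, was the lowest of all pools.

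Cytochrome P450 had another order of the regimes, with warm lowest. Its warm pools were at 1179, 1740, 1364 and 1691 normalized counts. The cold pools were at 3012, 2003, 3487 and 2279, and the moderate pools at 2431, 2562, 2013 and 1990. All 4 warm pools lay below all 8 other pools, which was so for 3.09% of the genes tested, and the cold and moderate pools overlapped. The mean was 1493 ± 268 in warm, 2696 ± 678 in cold and 2249 ± 291 in moderate (SD, n = 4 each).

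In warm against cold the log2 fold-change of cytochrome P450 was -0.85 (standard error 0.18), so that cold was at 1.80 times warm. With warm lower, the pools were separate for 13.8% of all genes, and 2.77% were called. The study does not list this gene for the contrasts with the moderate regime, but each shares 4 pools with the one listed. It also plotted the gene over all regimes, so these contrasts are not free of the choice. In warm against moderate the log2 fold-change was -0.59 (standard error 0.18, 95% interval from -0.97 to -0.21), and the edgeR test gave an adjusted p of 0.0633. No warm pool overlapped a moderate pool, a separation found with warm lower in 5.34% of all genes, while 2.71% were called lower. The gene was thus not past the threshold over all genes. The adjusted p was 0.0281 in DESeq2, the tool of the study, and 0.0157 in limma with voom and sample weights. It was 0.0215 in edgeR once moderate replicate 4 was dropped. These were the only 3 of 20 alternatives past the threshold, and over all 20 the adjusted p lay between 0.0157 and 0.155. Without moderate replicate 2 the log2 fold-change was -0.52 (edgeR, adjusted p = 0.135).

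For cold against moderate the log2 fold-change of cytochrome P450 was 0.26 ± 0.18 (SE), not past the threshold (edgeR, adjusted p = 0.578), in a contrast where 0.0142% of all genes were called. The 95% interval from -0.12 to 0.64 allows a cold level between 0.920 and 1.56 times the moderate one. Cold pools varied most. Cold replicates 1 and 3 were the highest of all 12 pools, and cold replicate 2 was below 3 of the 4 moderate pools. The cold regime's highest pool was 1.74 times its lowest, against 1.48 times in warm and 1.29 times in moderate. Left out in turn, cold replicate 3 lowered the fold-change of cold against moderate to 0.11, and cold replicate 2 raised it to 0.38.

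**Figure D2:**
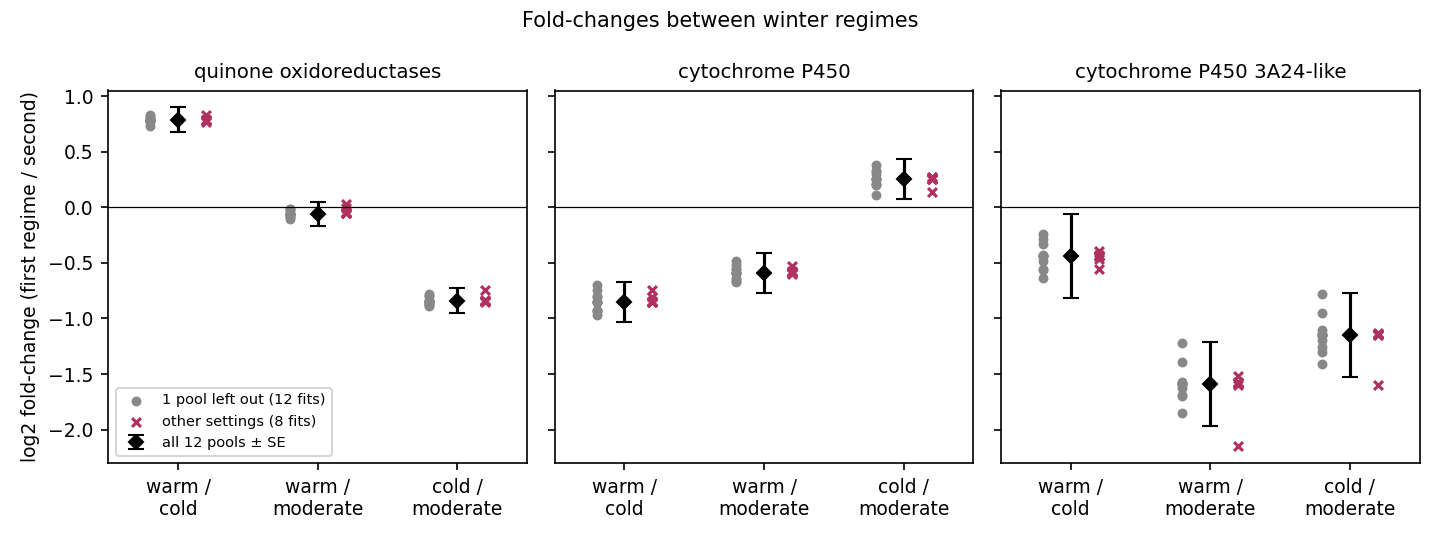
Log2 fold-changes (y axis) of the first regime over the second for quinone oxidoreductases, cytochrome P450 and cytochrome P450 3A24-like, as diamonds with standard errors for all 12 pools, grey points for the 12 fits with 1 pool left out and crosses for 8 other settings. Quinone oxidoreductases stays between 0.73 and 0.83 in warm against cold with a pool left out, and cytochrome P450 between -0.97 and -0.70.

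The SD of cytochrome P450 within regimes was 0.282 on the log2 CPM scale. The median of all genes, not matched for read depth, was 0.272. Regimes made up 67.4% of its variance over the 12 pools, with a larger share in 5.99% of genes. Measured this way its pattern was less tight than that of quinone oxidoreductases, and the regime that stood apart was another one. The genes were chosen on different contrasts between regimes, which bears on both points, so this is a description.

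Both genes can be set against each other within a pool, where library size cancels. The reads of quinone oxidoreductases were 3.84, 2.46, 3.11 and 2.25 times those of cytochrome P450 in the warm pools. In the cold pools the ratio was 0.709, 1.25, 0.741 and 1.12, and in the moderate pools 1.67, 1.84, 1.97 and 2.40. Every cold pool had a lower ratio than every other pool, and the warm and moderate ranges met at moderate replicate 4, which at 2.40 was above the lowest warm pool. Both genes were chosen on warm against cold, in opposite directions, and quinone oxidoreductases also on cold against moderate. A low ratio in cold thus largely follows from that choice, and the ratio is a description. Gene length enters the size of the ratio, so only its differences between pools can be read. Over the 12 pools the log2 CPM of the genes had a Pearson's r of -0.57 and a Spearman's rho of -0.42, and the deviations from the regime means an r of -0.25. These describe 12 points that share their regimes.

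**Figure D3:**
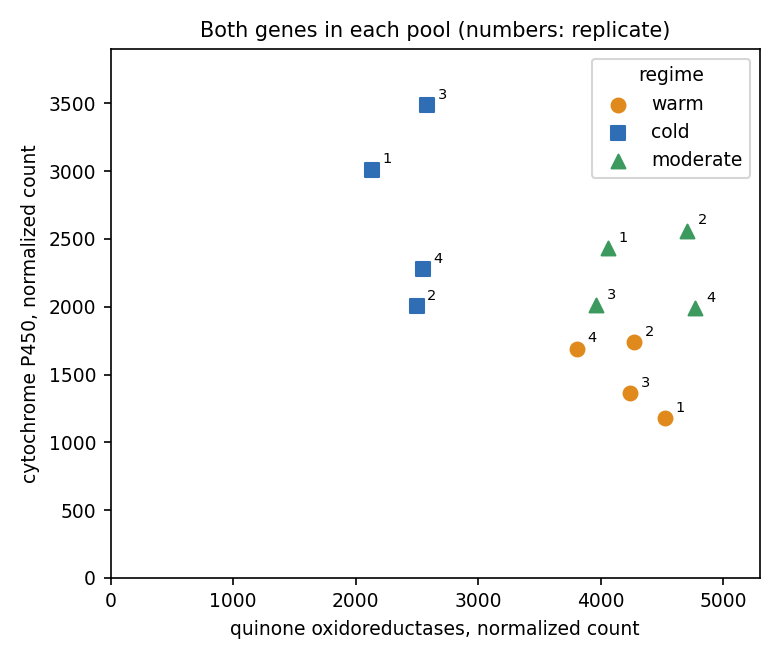
Normalized counts of quinone oxidoreductases (x axis) and cytochrome P450 (y axis) in each of the 12 pools, coloured by warm, cold and moderate regime and numbered by replicate. The cold pools lie to the left, at 2137 to 2583 on the x axis, and the warm pools at the bottom right, at 1179 to 1740 on the y axis, with the moderate pools above them.

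A second P450 is named by the study, cytochrome P450 3A24-like (LOC129957012), on chromosome 11 from 24417214 to 24469182. Its name points to a likeness to subfamily 3A, which in mammals oxidizes many drugs and steroids. The study chose it for warm against moderate. It had fewer reads, between 97 and 881 per pool, which gives a counting error of up to 10.2%. The normalized counts were 209, 93.5, 162 and 207 in the warm pools. In the cold pools they were 208, 126, 280 and 300, and in the moderate pools 847, 510, 457 and 207.

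In this gene the moderate regime was highest, where cytochrome P450 had its highest mean in cold. The exception was moderate replicate 4, the library nearest to the warm pools, at 207. This value lay within the warm range from 93.5 to 209 and also within the cold range from 126 to 300. For cytochrome P450 the same library was the lowest of the moderate pools, at 1990, but above all warm pools. The log2 fold-change of cytochrome P450 3A24-like was -1.59 (standard error 0.38) in warm against moderate, the contrast it was chosen on. It was -1.85 without moderate replicate 4 and -1.22 without moderate replicate 1, the pool at 847, the lowest and highest values with 1 pool left out. In cold against moderate it was -1.15 ± 0.38 (SE; edgeR, adjusted p = 0.292), not past the threshold. This contrast shares its moderate pools with the one that chose the gene. Without moderate replicate 4 it was -1.41 (edgeR, adjusted p = 0.0303), without moderate replicate 1 it was -0.78, and the adjusted p over 20 alternatives lay between 0.0180 and 0.524. In warm against cold the value was -0.44 ± 0.38 (SE; edgeR, adjusted p = 0.491), with a 95% interval from -1.26 to 0.38, and between -0.64 (without cold replicate 2) and -0.24 (without warm replicate 2) with 1 pool left out.

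Within a pool the reads of cytochrome P450 3A24-like can be set against those of cytochrome P450. The ratio was 0.178, 0.0538, 0.119 and 0.122 in the warm pools. In the cold pools it was 0.0692, 0.0631, 0.0802 and 0.131, and in the moderate pools 0.348, 0.199, 0.227 and 0.104. The warm and cold pools overlapped. Moderate replicate 4 lay among them, and the other 3 moderate pools were above every warm and cold pool. Cytochrome P450 was chosen on the warm and cold pools and cytochrome P450 3A24-like on the warm and moderate pools, so this ratio is a description.

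Among all other genes tested, 5 had a Pearson's r above 0.9 with quinone oxidoreductases over the log2 CPM of the 12 pools, and 6 had an r below -0.9. The gene most like it was LOC129960184 on chromosome X2 (r = 0.95). It was at 342 ± 15.1 normalized counts in warm, 254 ± 16.5 in cold and 353 ± 24.5 in moderate (SD, n = 4 each). It was followed by LOC129980985 on chromosome 8 (r = 0.93), which was at 254 ± 4.11 in warm, 140 ± 19.8 in cold and 277 ± 64.9 in moderate. LOC129958678, LOC129960084 and the long non-coding RNA gene LOC129976743 had r values of 0.92, 0.91 and 0.90. In all 5 genes the cold mean was the lowest and the log2 fold-changes of warm against moderate lay between -0.15 and 0.20. They were picked by r over these same pools with a gene that is low in cold, so this likeness follows from the choice.

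The gene with the most opposite pattern to quinone oxidoreductases was LOC129975977 on chromosome 7 (r = -0.96). It was at 129 ± 8.09 in warm, 172 ± 8.25 in cold and 129 ± 11.1 in moderate (SD, n = 4 each), so its cold pools, from 164 to 183, were above all others. The second, LOC129971397 on chromosome 6 (r = -0.94), was at 1202 ± 166 in warm, 2404 ± 177 in cold and 1346 ± 211 in moderate. High cold levels follow here from the choice by r. The files and the annotation used here give these genes no product names.

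For cytochrome P450 the most alike genes were LOC129989024 (r = 0.93), LOC129963403 (0.92), LOC129981350 (0.92), LOC129963086 (0.91) and LOC129962661 (0.91). LOC129989024, on chromosome 10, was at 2406 ± 261 in warm, 2983 ± 226 in cold and 2904 ± 258 in moderate (SD, n = 4 each). LOC129963086 varied most, at 30.8 ± 8.11 in warm, 89.5 ± 39.0 in cold and 89.8 ± 25.0 in moderate. All 5 had their lowest mean in warm, which follows from picking them by r with a gene that is lowest there. The most opposite genes were LOC129968654 (r = -0.93) and LOC129963476 (r = -0.91), with log2 fold-changes of 0.71 and 0.48 in warm against cold.

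**Figure D4:**
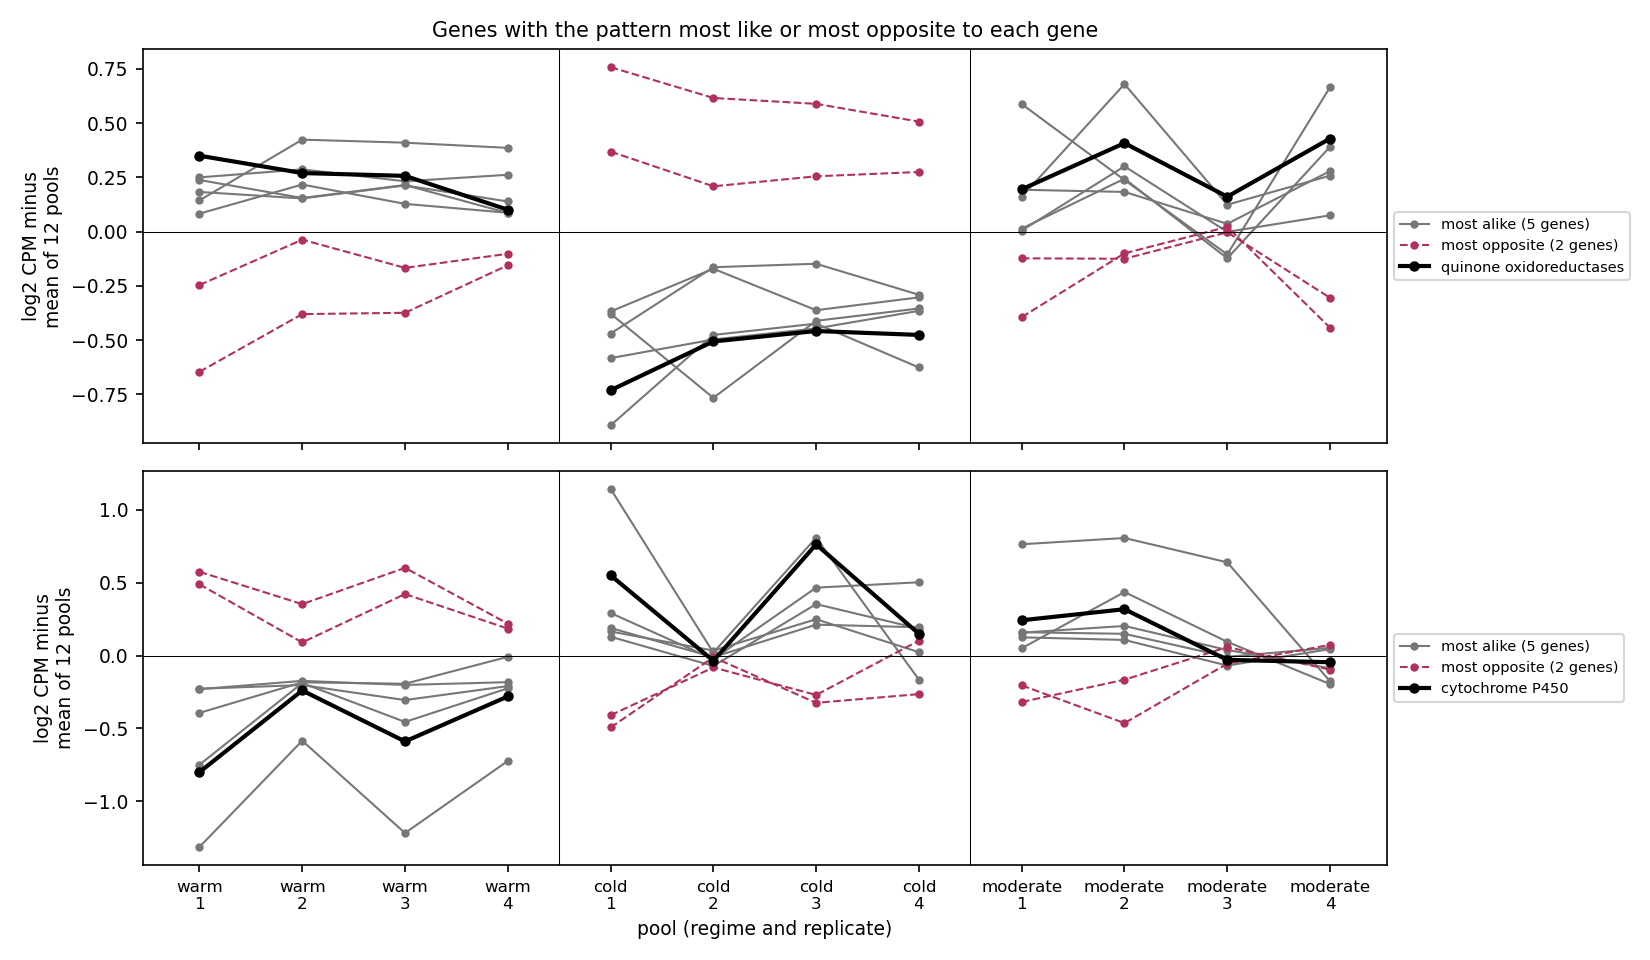
Log2 CPM minus the mean of the 12 pools (y axis) in each pool (x axis, warm, cold and moderate replicates) for quinone oxidoreductases above and cytochrome P450 below, as thick black lines, with the 5 most alike genes in grey and the 2 most opposite in dashed red. Lines join the points of one gene within a regime, and the grey lines of quinone oxidoreductases drop in the 4 cold pools while those of cytochrome P450 are low in the 4 warm pools.

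The nearest genes on the chromosome were not called in warm against cold. Whether their patterns differed from those of quinone oxidoreductases and cytochrome P450 was not tested. The closest to quinone oxidoreductases were LOC129981719, which ends 7866 bases before it, and LOC129980494, which begins 8492 bases after it. In warm against cold, where quinone oxidoreductases was at 0.79, their log2 fold-changes were 0.38 and -0.45, and neither was called (edgeR, adjusted p = 0.440 and 0.144). LOC129980494 was called in warm against moderate, with 1778 ± 118 normalized counts in warm and 2892 ± 786 in moderate (SD, n = 4 each) and a value of -0.70 (edgeR, adjusted p = 0.0491). The call was close to the threshold, and the pools of both regimes overlapped.

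Next to cytochrome P450 lie LOC129954982, at a distance of 5084 bases, and LOC129960721, at 1191 bases. LOC129954982 was level, with 1368 ± 273 normalized counts in warm, 1428 ± 100 in cold and 1404 ± 40.9 in moderate (SD, n = 4 each). LOC129960721 was at 373 ± 59.1 in warm, 426 ± 37.1 in cold and 323 ± 66.9 in moderate, and its adjusted p-values were between 0.372 and 0.493 in edgeR's test. Counting every gene with some part within 500 kb, 11 others were tested around quinone oxidoreductases and 18 around cytochrome P450. In edgeR's test 0 of these were called in warm against cold, where 5.47% of all genes were called.

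**Figure D5:**
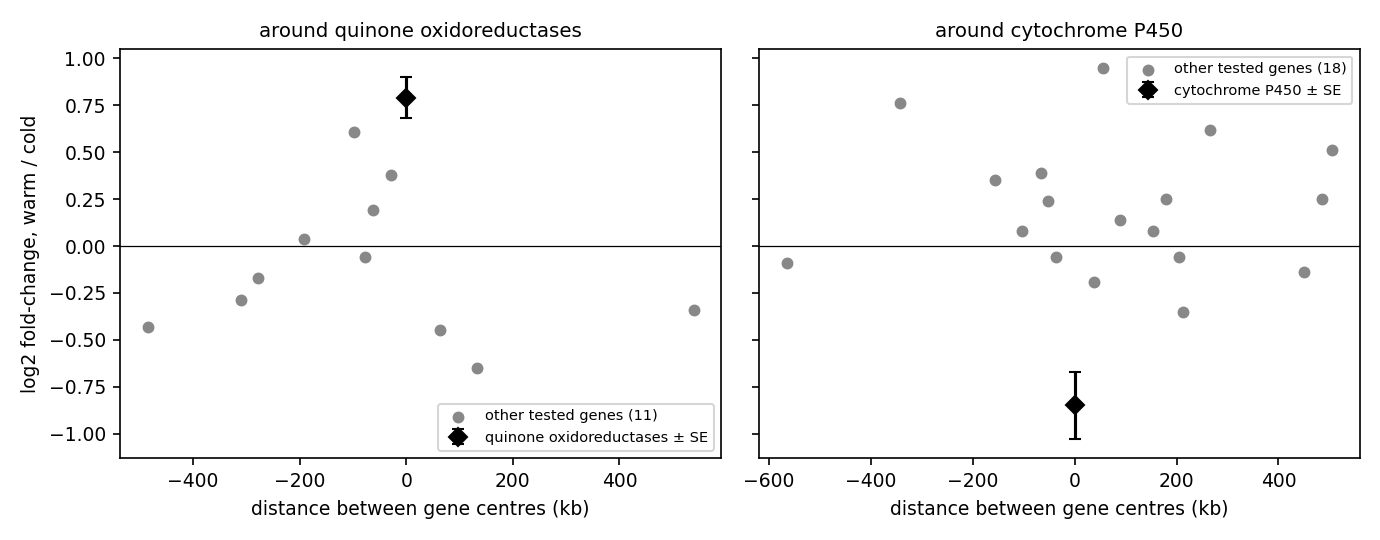
Log2 fold-change of warm over cold (y axis) against the distance between gene centres in kb (x axis) for quinone oxidoreductases with 11 tested neighbours and cytochrome P450 with 18, with standard errors for the central genes. Around quinone oxidoreductases, at 0.79, the other genes lie between -0.65 and 0.61, and around cytochrome P450, at -0.85, between -0.35 and 0.95.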

How the data were processed

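The authors mapped the reads of the 12 pools to the A. bruennichi genome with STAR 2.7.11a, run in 2 passes, and counted per gene with featureCounts of Subread 2.0.6, as the paper and the submitters' processing notes state. The deposited values are raw counts, and all 12 sample columns were used, with 0 left out. How strand and multi-mapping reads were handled is not given in the sources used here, so counts of closely similar copies of a gene, and of genes overlapping on opposite strands, are uncertain. Of 37459 genes, 2 had no values.

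Counts were filtered with filterByExpr (minimum count of 10), normalized by TMM and tested with the quasi-likelihood functions of edgeR 4.0.16 in R 4.3.3, in one model of all pools with regime as the only factor. Genes were called at a Benjamini-Hochberg adjusted p under 0.05. Standard errors were derived from the F statistic and are approximate. Alternatives used DESeq2 1.42.0, limma 3.58.1, other filters and scalings, a replicate block and each pool left out.

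The members, lists and tests were chosen with earlier results of these data known. Named genes are the members, the other P450 of the study, the 5 most alike and 2 most opposite genes by Pearson's r and the nearest neighbours; the ratios of reads between genes and the 500 kb window were added later. Lists of related enzymes by product name or protein sequence, and levels per transcript length, were not analysed here. Positions and gene types are from assembly qqArgBrue1.1.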

Additional observations from a re-analysis of the deposited data

How the results depend on the processing

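Leaving out 1 pool at a time kept the direction of all log2 fold-changes of both genes: from 0.73 to 0.83 (warm against cold), from -0.10 to -0.01 (warm against moderate) and from -0.89 to -0.78 (cold against moderate) for quinone oxidoreductases, and from -0.97 to -0.70, from -0.67 to -0.48 and from 0.11 to 0.38 for cytochrome P450. Other settings kept them too, except that quinone oxidoreductases in warm against moderate turned to 0.03 in limma with voom and sample weights. Cytochrome P450 in warm against moderate passed the threshold at -0.58 under DESeq2's Wald test and at -0.60 under voom. With the edgeR fit without moderate replicate 4, these were the only 3 of 20 alternatives that passed.

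The numbers of genes called in edgeR's main fit were 769 in warm against cold, 573 in warm against moderate and 2 in cold against moderate. DESeq2's Wald test called 1731, 2216 and 189, and voom 3727, 5096 and 804. On only the regimes compared edgeR called 3272, 0 and 0, with 3234 and 1228 genes at an unadjusted p under 0.05 behind the zeros. Upper-quartile scaling called 95 in warm against moderate and 5 in cold against moderate, and no filter on low counts 5 in cold against moderate. With 1 pool left out the numbers ranged from 115 to 2237, from 0 to 4419 and from 0 to 650, each highest without moderate replicate 4. Apart from that fit, warm against moderate had at most 6 calls. In the fits with 0 calls, 3324 to 3937 and 1281 to 1566 genes had an unadjusted p under 0.05.

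With the replicate number as a block, edgeR called 472, 14 and 0 genes (1611 at an unadjusted p under 0.05 in the last). The labels state no pairing, and same-numbered pools had correlations of their deviations between -0.0742 and 0.121. Of the 5 genes most like quinone oxidoreductases, 0 were shared with the first 5 by Spearman's rho and 0 with those by deviations from the regime means; for cytochrome P450 it was 2 and 0.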

Other observations

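In warm against moderate 4 of the 11 genes tested within 500 kb of quinone oxidoreductases were called by edgeR's quasi-likelihood test, where 4.08% of all genes were, and all 4 were lower in warm. They were LOC129981867 (log2 fold-change -0.51, adjusted p = 0.0460), LOC129980494 (-0.70, 0.0491), LOC129980496 (-1.54, 0.0435) and LOC129981734 (-1.01, 0.0457). In LOC129980494 and LOC129981734 the warm and moderate pools overlapped. The annotated spans of LOC129980494 and LOC129980496 overlap. Near cytochrome P450, 1 of 18 genes was called in this contrast, LOC129954998, with a log2 fold-change of 0.47 (adjusted p = 0.0465) and overlapping warm and moderate pools. The window was not planned, and the genes were named after their values were seen. In 5 of the 12 fits with 1 pool left out, edgeR called 0 genes in this contrast, with 3324 to 3937 genes at an unadjusted p under 0.05. The remaining fits called 1 to 6 genes, except for 4419 without moderate replicate 4, against 573 with all pools. The number of calls in this contrast thus depended on having all 12 pools or on leaving out that one. Whether the genes named here were among the calls of those fits was not tested.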
